A study of Saccharomyces cerevisiae with 8 samples.

Results

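The response of a *sin3∆* yeast strain to the loss of Sin3p was described at 30°C across all genes, from the most abundant transcripts to those near the limit of detection. The members were every gene with at least 1 RPKM (reads per kilobase of transcript, scaled to the number of mapped reads, the unit under which the values were deposited, although their sums per library are also near those of TPM) in at least 2 of the 8 libraries of the series, which left 5628 of 6103 genes with values. The *sin3∆* strain was compared with its parent, the wild type, and also with *srb2∆*, a strain that lacks a subunit of the Mediator head. The remaining strain, *mig1∆*, which lacks the glucose repressor Mig1p, entered the filter and the joint fit and gives values for a few genes. The wild type is ScY01a, a haploid of mating type **a** that comes from an adaptively evolved thermotolerant industrial strain. All 3 deletion strains derive from it, and in each a KanMX cassette took the place of the whole reading frame, so that they also carry this drug marker and the wild type does not. How many clones stand behind a deletion was not found in the sources used here. Cells of all groups were grown for 10 h at 30°C in rich YP medium with 200 g/L glucose, shaken at 200 rpm by the sample labels, with 2 libraries per strain. Cultures grown at 40°C for the same study belonged to another batch and are not analysed here. Nothing found states whether the 2 libraries of a strain came from separate cultures, so p-values measure only the spread between these samples, which may be technical.

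Sin3p is a large scaffold that holds the histone deacetylase Rpd3p and brings it to promoters. It binds no DNA of its own and is recruited by sequence-specific repressors, of which the best known are Ume6p, which binds the URS1 element and keeps early meiotic, arginine breakdown and some metabolic genes silent in growing cells, and Ash1p, which acts in daughter cells. Deacetylation of histones near the promoter represses transcription, while another form of the complex acts within transcribed genes. Loss of Sin3p has also been tied to lower expression of some genes, stress-induced ones among them.

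The targeted gene checked the labels first. *SIN3* (YOL004W, chromosome XV from 316938 to 321548 of R64) was listed at 0 in both *sin3∆* libraries, against 23.2 and 17.1 RPKM in the wild type and 26.8 and 27.4 RPKM in *srb2∆*. Values within a strain were close, with a median absolute difference between the 2 libraries of 0.0771 on the log2 scale in *sin3∆*, 0.160 in the wild type and 0.0737 in *srb2∆*. Markers of the mating type fitted the label in part. The **a**-cell genes for the pheromone receptor (*STE2*) and the pheromone protease (*BAR1*) were expressed. *STE3*, the receptor of the other mating type, stayed at or under 0.352 RPKM in all 8 libraries. The 4 listed genes of that other type, *STE3* among them, still summed to 41.3 and 38.8 RPKM in the wild type. The 7 listed **a**-cell genes summed to 822 and 941 RPKM there. The pheromone genes *MFA1* and *MFA2* are used by every cell of mating type **a** and were nonetheless listed at 0 in all 8 libraries. A 0 of a short gene can thus be a failed estimate. Between 9 and 14 genes per strain stood at 0 in 1 library and at 10 RPKM or more in the other, and all but 1 of them in each deletion strain, and all 14 in the wild type, were under 300 bases or not matched to a locus. *COX7* and *DDR2*, picked after their values were seen, are examples. *COX7*, a subunit gene of cytochrome oxidase, had 393 and 555 RPKM in *sin3∆*, against 774 and 0 RPKM in the wild type. *DDR2*, a stress gene, was listed at 0 in both *sin3∆* libraries, against 675 and 0 RPKM in the wild type. Neither passed the test.

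At a fold change of 2 or more and an adjusted p of 0.05 or less in limma, 995 genes were higher in *sin3∆* than in the wild type and 685 were lower, which is 17.7% and 12.2% of the genes tested. These shares are the background against which every group of genes is read here. The 26 genes that passed the filter only through the *sin3∆* libraries had to be high there, and 20 of them are among the higher ones. No called gene had overlapping groups, but a call with 2 libraries per strain leaves little room for overlap, so this adds no support. The same holds wherever the groups of single called genes are said below to lie apart. The median log2 fold change was 0.01 over all genes, 1.49 over those called higher and -1.49 over those called lower. Changes of 4-fold or more were seen in 230 higher and 180 lower genes, and changes of 16-fold or more in 31 and 26. The fold changes are differences of log2(RPKM + 1), a scale that understates the change of low genes. The balance of the calls depends on a scaling between libraries that the deposited values carry. With that scaling removed, an alternative chosen after the data had been seen, 648 genes were higher and 1117 lower and the median of all genes moved to -0.30, while all 685 lower genes kept their call and no call reversed.

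**Figure D1:**
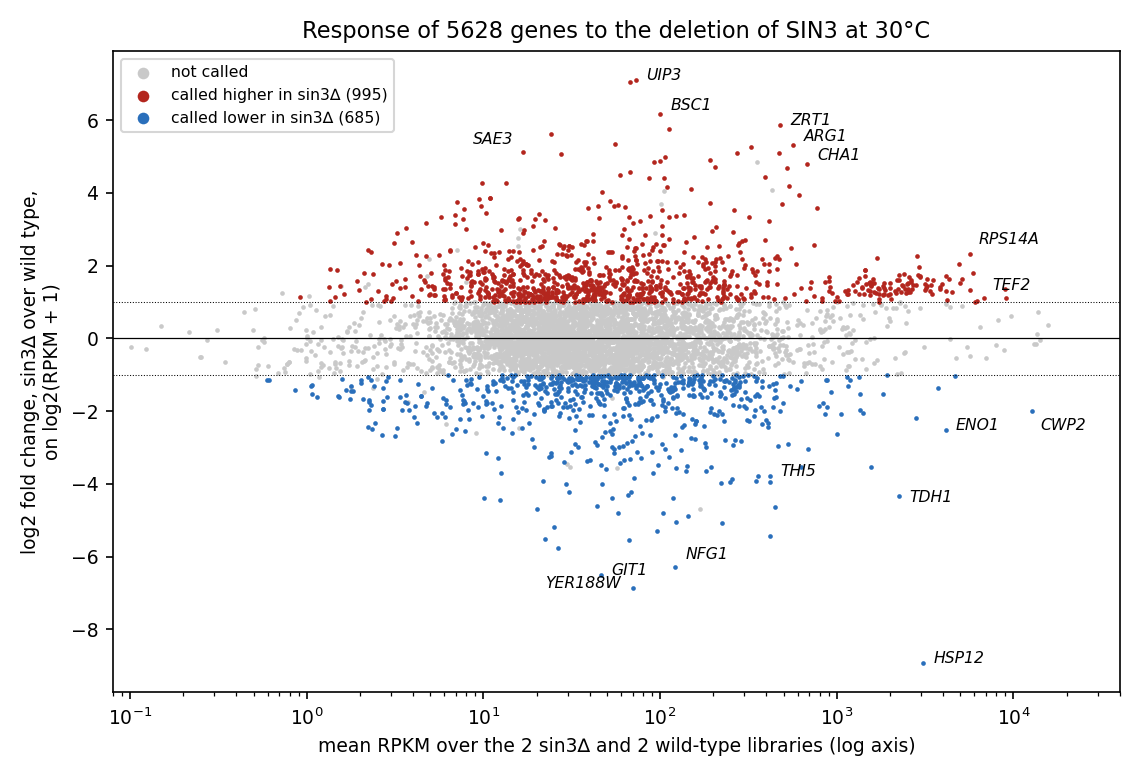
Each point is a gene, placed by its mean level over the 4 libraries compared (RPKM, log axis) and its log2 fold change in *sin3∆* over the wild type, with the 995 genes called higher in red, the 685 called lower in blue and the rest in grey; dotted lines mark a 2-fold change. Both directions spread over the whole range of levels, while red points prevail above 1000 RPKM.

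The split between directions changed with the level. Among the 197 genes with a mean of 1000 RPKM or more, 103 were higher and 19 lower. Over all levels 110 of 132 genes for cytosolic ribosomal proteins, many of them paired with close copies, were higher, 71 with the scaling removed and 34 under quantile normalization. At 100 to 1000 RPKM the counts were 228 higher and 205 lower of 1189, at 10 to 100 RPKM 541 and 373 of 3601, and at 1 to 10 RPKM 122 and 85 of 592. Weakly expressed genes were thus among those called in both directions. Of 51 genes within 10 kb of a chromosome end 13 were higher and 11 lower, of 220 genes at 10 to 30 kb 52 and 51, and of the 5305 genes farther in 910 and 622. Of 131 genes with a coding length under 300 bases 15 were higher and 36 lower, the size class in which the values at 0 described above also lie.

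By abundance, the genes called higher gained 343549 RPKM in sum, of which 96266 lay outside the ribosomal protein genes, and the genes called lower fell by 133226 RPKM in sum. Beside the ribosomal protein genes, the largest gains belonged to the translation machinery and to nitrogen metabolism. *TEF2*, which encodes the elongation factor that brings aminoacyl-tRNA to the ribosome, had 9184 and 9454 RPKM in *sin3∆*, against 4509 and 4172 RPKM in the wild type (log2 fold change 1.10 ± 0.10 SE, adjusted p = 3.59e-05). The ribosome-bound signalling protein gene *ASC1* stood at 2201 and 2205 RPKM in *sin3∆*, against 704 and 636 RPKM in the wild type (log2 fold change 1.72 ± 0.11 SE, adjusted p = 6.61e-06). Among metabolic genes *GLN1*, for glutamine synthetase, had 2041 and 2046 RPKM in *sin3∆*, against 676 and 616 RPKM in the wild type (log2 fold change 1.66 ± 0.08 SE, adjusted p = 1.68e-06). In all 3 genes both *sin3∆* libraries lay above both wild-type ones. *STM1*, a ribosome-preservation factor, *HYP2*, the translation factor eIF5A (log2 fold change 1.18), and *GSP1*, the nuclear transport GTPase (1.22), also rose. The calls of *TEF2*, *HYP2* and *GSP1*, whose fold changes lie close to 2, were lost both with the scaling between libraries removed and under quantile normalization. *TEF2* and *HYP2* also have near-identical copies, *TEF1* and *ANB1*, with which reads may be shared.

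The 10 largest losses included the stress gene *HSP12*, the chaperone gene *KAR2* and the genes named here. *CWP2* and *SED1* encode abundant mannoproteins of the cell wall. *CWP2* fell to 4989 and 5004 RPKM in *sin3∆*, against 16283 and 24498 RPKM in the wild type (adjusted p = 5.98e-05, limma). *SED1* fell to 979 and 1041 RPKM in *sin3∆*, against 4115 and 5133 RPKM in the wild type (log2 fold change -2.19 ± 0.13 SE, adjusted p = 4.26e-06). Isozyme genes of glycolysis stood beside them. *TDH1*, a glyceraldehyde-3-phosphate dehydrogenase gene, had 195 and 229 RPKM in *sin3∆*, against 4379 and 4146 RPKM in the wild type (log2 fold change -4.33 ± 0.10 SE, adjusted p = 1.10e-07). The enolase gene *ENO1* had 1168 and 1289 RPKM in *sin3∆*, against 7486 and 6602 RPKM in the wild type (log2 fold change -2.52 ± 0.10 SE, adjusted p = 7.43e-07). The wild-type libraries exceeded the *sin3∆* libraries several-fold in each of these genes. *PBI2*, an inhibitor of vacuolar proteinase B, *ACB1*, the acyl-CoA binding protein, *INO1*, inositol-3-phosphate synthase, and *TSA1*, a peroxiredoxin, had log2 fold changes of -2.05, -1.53, -1.38 and -1.04. The call of *TSA1* was lost without wild type replicate 3.

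**Figure D2:**
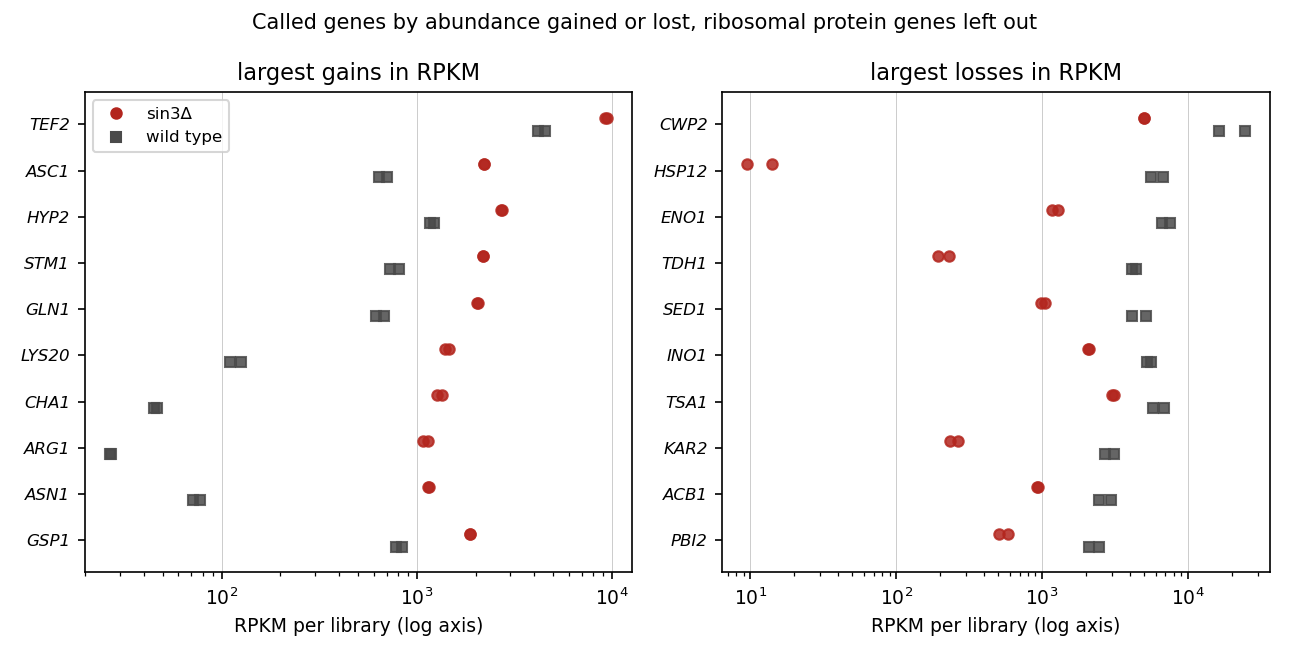
RPKM per library (log axis) of the 10 called genes that gained most and the 10 that lost most in mean RPKM outside the ribosomal protein genes; red circles are the 2 *sin3∆* libraries and grey squares the 2 wild-type libraries. The groups lie apart in all 20 genes, by the widest margin in *HSP12*.

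By fold, the largest rises were *UIP3*, snR33, *BSC1*, *ZRT1*, *PRM7*, *ENB1*, *YDL241W* and *ARG1*. *BSC1* and *PRM7* are neighbours on chromosome IV and rose together. *BSC1* had 191 and 204 RPKM in *sin3∆*, against 1.72 and 1.81 RPKM in the wild type (log2 fold change 6.17 ± 0.08 SE, adjusted p = 1.89e-08). *PRM7* had 216 and 225 RPKM in *sin3∆*, against 3.28 and 2.99 RPKM in the wild type (log2 fold change 5.74 ± 0.08 SE, adjusted p = 1.89e-08). Wild-type levels of both were within a few RPKM of 0. In *srb2∆* they stood high as well, *BSC1* at 173 and 174 RPKM and *PRM7* at 183 and 179 RPKM, and neither was called between the mutants. *YDL241W*, an uncharacterized gene, had 114 and 103 RPKM in *sin3∆*, against 0.940 and 2.74 RPKM in the wild type (log2 fold change 5.35 ± 0.33 SE, adjusted p = 6.08e-06). Its *srb2∆* values were 69.6 and 80.5 RPKM. At the other end stood *HSP12*, the uncharacterized *YER188W* and *YFL041W-A*, *GIT1*, *NFG1*, *GND2*, *KTD1* and *ULI1*. Of these, *YFL041W-A* has only 192 bases, and its values of 0 can be failed estimates. It was listed at 0 in both *sin3∆* and both *srb2∆* libraries, at 58.5 and 47.8 RPKM in the wild type and at 32.8 and 0 RPKM in *mig1∆*. *GND2*, the minor isozyme of 6-phosphogluconate dehydrogenase, fell to 2.42 and 1.38 RPKM in *sin3∆*, against 141 and 123 RPKM in the wild type (log2 fold change -5.54 ± 0.18 SE, adjusted p = 3.85e-07). *NFG1*, a negative regulator of filamentous growth, fell to 3.15 and 1.23 RPKM in *sin3∆*, against 203 and 279.7 RPKM in the wild type (log2 fold change -6.30 ± 0.28 SE, adjusted p = 1.33e-06). *ULI1* had 20.9 and 15.2 RPKM in *sin3∆*, against 782 and 860.0 RPKM in the wild type (log2 fold change -5.44 ± 0.22 SE, adjusted p = 1.01e-06). Each of these 3 genes was well expressed in the parent and lower in both libraries of the mutant by more than the spread between libraries. *GND2* and *ULI1* were also low in *srb2∆*, at 1.36 and 1.22 RPKM and at 7.35 and 12.2 RPKM. *NFG1* had 105 and 109 RPKM there.

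Genes that crossed from near silence to expression were taken as those under 1 RPKM on average in the wild type and at 5 RPKM or more in *sin3∆*. There were 30, and 8 of them were listed at 0 in both wild-type libraries. With a limit of 0.5 RPKM in the wild type there were 19. Of the 30, 27 were called higher, a count that the rule itself brings about, and 14 had passed the filter only through the *sin3∆* libraries. Early meiotic genes made up 5 of the 30. Over the whole list of early meiotic genes, 20 of 29 were higher and 0 lower, with a median log2 fold change of 1.51 beside 0.01 over all genes. Of these, *HOP2*, *MEI4*, *MEI5*, *SAE3* and *SPO11* were tested only because they were high in *sin3∆*, and of the other 24 members 15 were higher and 0 lower (median 1.21). Over the whole list 16 were higher and 1 lower with the scaling between libraries removed, and 17 and 1 under quantile normalization. The higher count fell to 12 when genes under 10 RPKM were filtered out. *SAE3* and *MEI5* encode the partner complex that loads the meiotic recombinase. *SAE3* was at 35.6 and 31.7 RPKM in *sin3∆* and listed at 0 in both wild-type libraries (adjusted p = 2.47e-05, limma). *MEI5* had 13.5 and 9.18 RPKM in *sin3∆*, against 0.276 and 0.143 RPKM in the wild type (log2 fold change 3.33 ± 0.24 SE, adjusted p = 1.40e-05). Both lay near 0 in the parent. *SPO13*, which keeps sister chromatids together through the first meiotic division, had 14.2 and 15.8 RPKM in *sin3∆*, against 0.828 and 1.17 RPKM in the wild type (log2 fold change 3.00 ± 0.20 SE, adjusted p = 8.65e-06), and its wild-type mean lay just under the limit of 1 RPKM. *GMC2*, for a protein of synaptonemal complex assembly, had 20.1 and 16.9 RPKM in *sin3∆*, against 0.362 and 0.390 RPKM in the wild type (log2 fold change 3.82 ± 0.18 SE, adjusted p = 1.71e-06). It was alike in both *sin3∆* libraries. Outside meiosis *SRT1*, a cis-prenyltransferase gene that works mainly in stationary phase and sporulation, had 14.4 and 16.1 RPKM in *sin3∆*, against 0.517 and 0.228 RPKM in the wild type (log2 fold change 3.57 ± 0.21 SE, adjusted p = 4.47e-06). The mitochondrial carnitine carrier gene *CRC1* had 19.0 and 18.8 RPKM in *sin3∆*, against 0.310 and 0.914 RPKM in the wild type (log2 fold change 3.65 ± 0.23 SE, adjusted p = 6.87e-06).

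The URS1 element, written AGCCGCC and searched on both strands from 250 bases before to 50 bases after the start of each coding sequence, was found in 130 of 5976 promoters of R64 (2.18%). It was present in 46 of 975 genes called higher (4.72%), in 14 of 684 called lower (2.05%), in 15 of the 29 early meiotic genes (51.7%) and in 7 of the 25 protein-coding genes switched on (28.0%). Of those last 7, all but *SPO13* had passed the filter only through the *sin3∆* libraries and so had to be high there. They are also among the 46 genes called higher, so these shares are in part set by the filter. Among the 122 tested genes with the element 46 were higher (37.7%) and 14 lower, with a median log2 fold change of 0.50, and the other 62 were not called. Among the 5454 tested genes without it 929 were higher (17.03%) and 670 lower. The stretches printed here hold the element for 6 genes that rose and 2 that fell, to show that the same letters stood before genes that moved in either direction. They are read from the RefSeq sequence of strain S288C in build R64 and not from the genome of ScY01a, run 5′ to 3′ on the strand of the gene, and have the element or its reverse complement in capitals. In order they lie at chrVIII:262645-262673 (minus strand), chrXVI:321740-321768 (minus), chrVIII:131940-131968 (plus), chrXIII:469603-469631 (minus), chrIII:17081-17109 (minus), chrXVI:339777-339805 (plus), chrXV:111900-111928 (minus) and chrXIII:350274-350302 (plus), all upstream of the coding sequence.
SAE3: ttctgcctaatGGCGGCTattctatttct
MEI5: gaaaaagtattAGCCGCCcaaacttctat
SPO13: tattgagaaatAGCCGCCgacaaaaagga
SRT1: gagtggacctcGGCGGCTaaagctatact
CHA1: gattccgcatgGGCGGCTcctgttaagcc
CAR1: cacttagcggtAGCCGCCgaggggtctaa
INO4: ggagttaagagGGCGGCTtgaactaaaaa
YET2: tgagaaaagctAGCCGCCtggaagtaaat

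Of these 8 genes the first 6 were higher in *sin3∆* and the last 2 lower. The element before *CHA1*, the gene for the serine and threonine deaminase of amino acid breakdown, lies between it and the divergent *VAC17*, an adaptor gene of vacuole inheritance picked after its values were seen. *CHA1* had 1347 and 1271 RPKM in *sin3∆*, against 45.1 and 46.9 RPKM in the wild type (log2 fold change 4.80 ± 0.07 SE, adjusted p = 1.98e-08), among the largest gains of the whole comparison. *VAC17* had 82.6 and 89.1 RPKM in *sin3∆*, against 15.3 and 16.3 RPKM in the wild type (log2 fold change 2.37 ± 0.07 SE, adjusted p = 3.36e-07). The pair thus rose to very different extents. *INO4*, a partner in the activator of phospholipid genes, fell to 75.5 and 78.3 RPKM in *sin3∆*, against 191 and 268 RPKM in the wild type (log2 fold change -1.54 ± 0.14 SE, adjusted p = 4.55e-05). *YET2*, related to a vesicle transport protein and also picked after its values were seen, had 30.6 and 36.7 RPKM in *sin3∆*, against 762 and 962 RPKM in the wild type (log2 fold change -4.63 ± 0.13 SE, adjusted p = 2.03e-07).

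Some switched genes lay side by side. *UIP3* and *KTD1*, both of the DUP240 family of membrane proteins, are neighbours on chromosome I, from 183770 to 184477 and from 184892 to 185596. *UIP3* had 154 and 137 RPKM in *sin3∆*, against 0.129 and 0 RPKM in the wild type (log2 fold change 7.10 ± 0.11 SE, adjusted p = 1.98e-08). *KTD1* was listed at 0 in both *sin3∆* libraries and at 49.2 and 40.0 RPKM in the wild type (adjusted p = 1.22e-07, limma). The *srb2∆* libraries showed the same inversion, with 179 and 167 RPKM for *UIP3* and 0 in both for *KTD1*, so the pair did not set *sin3∆* apart from the other mutant. *ZNF1*, a regulator of respiratory growth, and *YFL051C* are neighbours on chromosome VI. *ZNF1* had 26.2 and 26.3 RPKM in *sin3∆*, against 0.604 and 0.266 RPKM in the wild type (log2 fold change 4.26 ± 0.16 SE, adjusted p = 6.82e-07). *YFL051C* had 47.5 and 61.1 RPKM in *sin3∆*, against 0.492 and 0.818 RPKM in the wild type (log2 fold change 5.06 ± 0.23 SE, adjusted p = 1.51e-06). Near-identical copies cannot be told apart in such data, and the metallothionein genes *CUP1-1* and *CUP1-2* had the same values, 14.1 and 28.6 RPKM in *sin3∆*, against 1.15 and 0 RPKM in the wild type (log2 fold change 3.85 ± 0.71 SE, adjusted p = 0.0018). They had 54.8 and 238 RPKM in *srb2∆* and 165 and 95.9 RPKM in *mig1∆*, a strain without the glucose repressor Mig1p, so they were lowest in the wild type and differed widely between libraries of a strain.

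In the opposite direction, 21 genes averaged 5 RPKM or more in the wild type and under 1 RPKM in *sin3∆*, and 17 of them were called lower. *GIT1*, the glycerophosphoinositol transporter, fell to 0 and 0.046 RPKM in *sin3∆*, against 104 and 81.0 RPKM in the wild type (log2 fold change -6.50 ± 0.14 SE, adjusted p = 8.58e-08). The second pyruvate kinase gene *PYK2* fell to 0.125 and 0.691 RPKM in *sin3∆*, against 58.3 and 41.2 RPKM in the wild type (log2 fold change -5.18 ± 0.25 SE, adjusted p = 1.97e-06). *RPI1*, a regulator named for its effect on Ras signalling, fell to 1.02 and 0.184 RPKM in *sin3∆*, against 48.5 and 31.2 RPKM in the wild type (log2 fold change -4.69 ± 0.28 SE, adjusted p = 5.18e-06). These 3 genes were clearly expressed in the parent and close to 0 in the mutant. They were low in *srb2∆* as well, *GIT1* at 0.493 and 0.573, *PYK2* at 0.911 and 1.55 and *RPI1* at 0.664 and 0.698 RPKM. *PIG2*, a putative targeting subunit of the phosphatase that acts on glycogen synthase, and *STL1*, the glycerol symporter, had log2 fold changes of -3.71 and -2.83. Over all 8 libraries, 8 genes were above 5 RPKM in both *sin3∆* libraries and under 1 RPKM in the other 6, namely *ECM11*, *MEI4*, *HOP2*, *GMC2*, *MEI5*, *SRT1*, *ALP1* and snR33, and 3 showed the reverse, *SIN3* itself, *STL1* and *AFB1*. By this rule the first 8 had all passed the filter only through the *sin3∆* libraries, so their count gives no support. *ECM11*, *MEI4*, *HOP2*, *GMC2* and *MEI5* act in meiotic chromosome pairing and recombination.

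**Figure D3:**
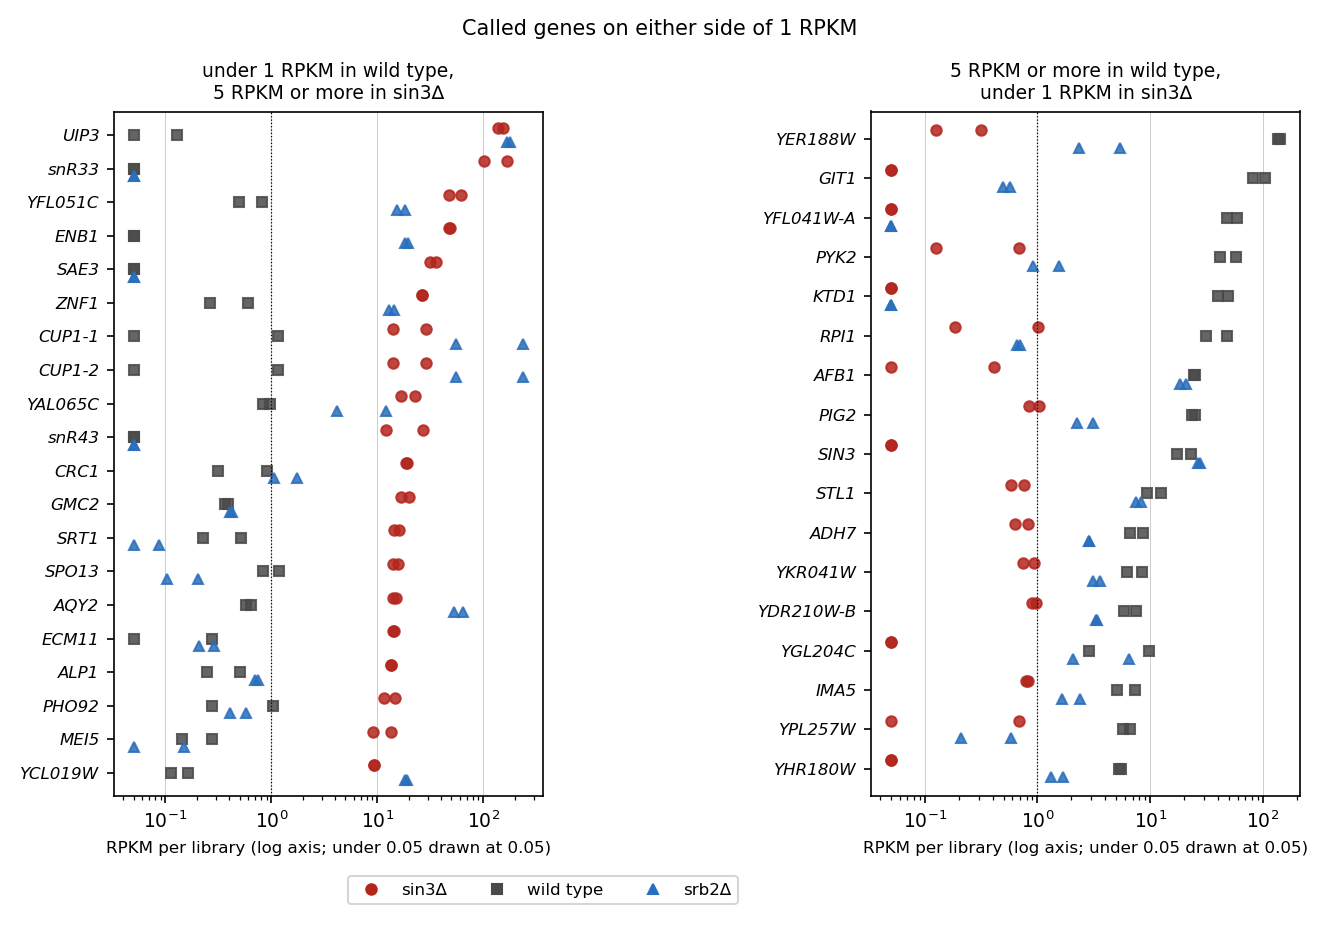
RPKM per library (log axis, values under 0.05 drawn at 0.05) of the called genes that lay under 1 RPKM in the wild type and at 5 RPKM or more in *sin3∆* (left, the 20 highest) and of the 17 called in the opposite direction (right); red circles are *sin3∆*, grey squares the wild type and blue triangles *srb2∆*. *SAE3*, *MEI5*, *GMC2* and *SRT1* have their *srb2∆* values near those of the wild type, while *UIP3* and *ENB1* have theirs above those of the wild type.

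Genes of ammonium uptake and glutamate metabolism were higher. Yeast takes up ammonium through the Mep permeases and fixes it with glutamate dehydrogenase and glutamine synthetase. Of 13 such genes 7 were higher and 0 lower, with a median log2 fold change of 1.01. *GDH2*, the dehydrogenase that breaks glutamate down, had 889.5 and 936 RPKM in *sin3∆*, against 28.4 and 23.3 RPKM in the wild type (log2 fold change 5.09 ± 0.10 SE, adjusted p = 5.80e-08). *MEP2*, the high-affinity ammonium permease and sensor, had 194 and 187 RPKM in *sin3∆*, against 16.9 and 14.6 RPKM in the wild type (log2 fold change 3.52 ± 0.09 SE, adjusted p = 1.65e-07). *GDH1*, the biosynthetic dehydrogenase, had 517 and 533 RPKM in *sin3∆*, against 144 and 152 RPKM in the wild type (log2 fold change 1.82 ± 0.08 SE, adjusted p = 1.36e-06). The mutant libraries were above the wild-type ones in all 3, in genes of both directions of glutamate metabolism. Breakdown of arginine is a classical target of Ume6p. *CAR1*, arginase, had 1015 and 1014 RPKM in *sin3∆*, against 54.9 and 54.7 RPKM in the wild type (log2 fold change 4.19 ± 0.06 SE, adjusted p = 1.98e-08). *CAR2*, ornithine transaminase, had 372 and 345 RPKM in *sin3∆*, against 31.4 and 22.0 RPKM in the wild type (log2 fold change 3.72 ± 0.15 SE, adjusted p = 8.75e-07). *PUT1*, proline oxidase, had a log2 fold change of 2.53, and with these 3 the list of arginine and proline breakdown had 3 of 9 higher. In allantoin breakdown 2 of 8 genes were higher, *DAL3*, ureidoglycolate lyase (2.52), and *DAL1*, allantoinase (2.44). *ASN1*, one of the asparagine synthetase genes, had 1148 and 1146 RPKM in *sin3∆*, against 77.0 and 71.6 RPKM in the wild type (log2 fold change 3.93 ± 0.07 SE, adjusted p = 3.12e-08).

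**Figure D4:**
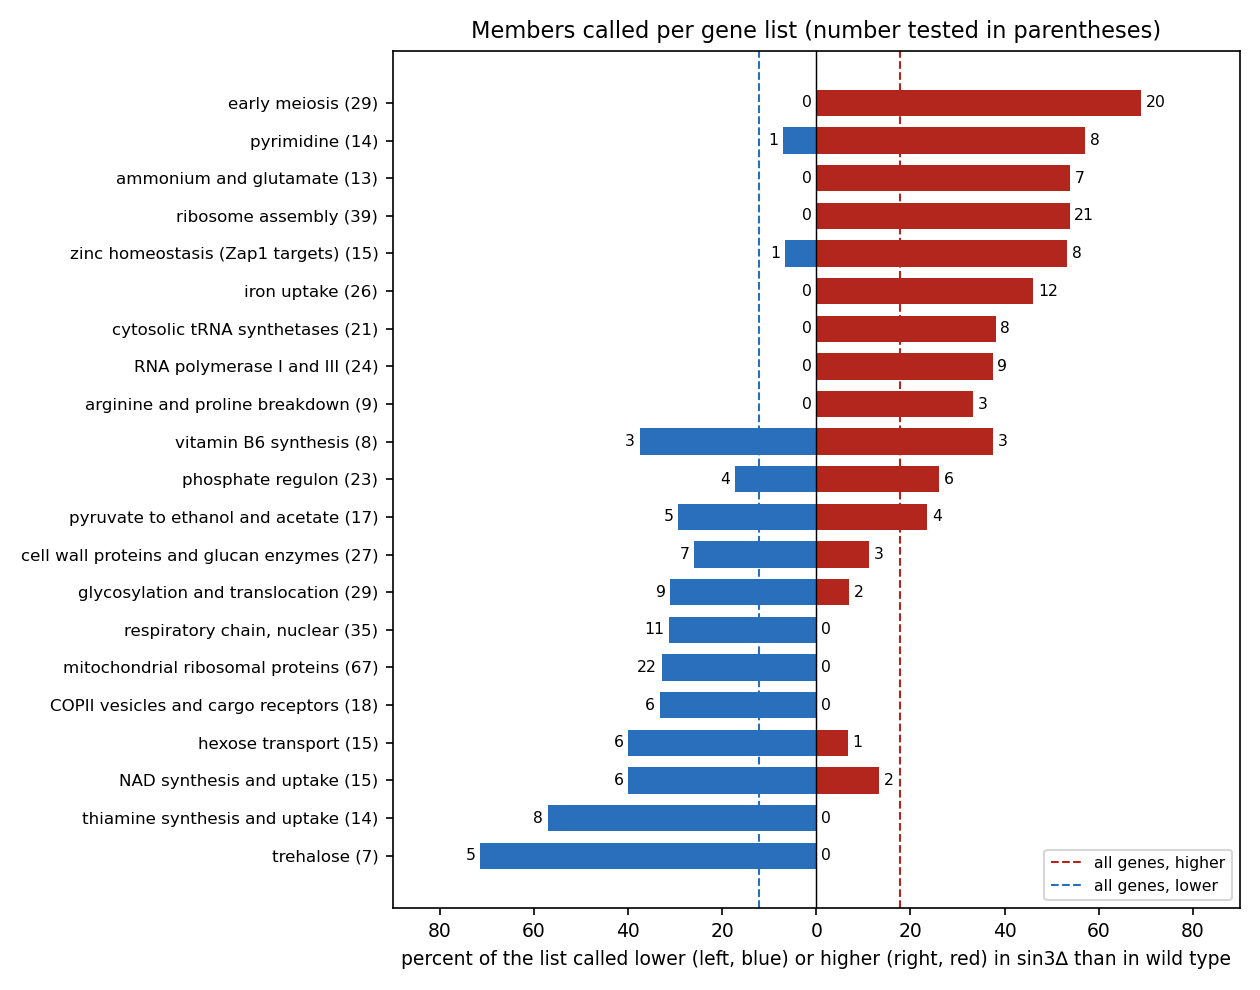
Percent of each gene list called higher (right, red) or lower (left, blue) in *sin3∆* than in the wild type, with the number of genes called beside each bar, the number tested in parentheses and the shares of all genes (17.7% higher, 12.2% lower) as dashed lines. Bars run far past the dashed line on the right for early meiosis (20 of 29) and on the left for trehalose (5 of 7).

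The zinc and iron lists held mostly rises among their called genes. Zap1p turns on zinc uptake when zinc is short, and 8 of 15 genes of its list were higher and 1 lower (median log2 fold change 1.04). *ZRT1*, the high-affinity zinc transporter, had 923 and 951 RPKM in *sin3∆*, against 15.2 and 14.7 RPKM in the wild type (log2 fold change 5.88 ± 0.09 SE, adjusted p = 1.98e-08). *ZPS1*, a cell wall protein of the same regulon, had 85.3 and 79.7 RPKM in *sin3∆*, against 7.72 and 6.99 RPKM in the wild type (log2 fold change 3.32 ± 0.09 SE, adjusted p = 2.10e-07). *FET4*, a low-affinity transporter of iron and other metals, had 178 and 177 RPKM in *sin3∆*, against 30.1 and 28.5 RPKM in the wild type (log2 fold change 2.56 ± 0.07 SE, adjusted p = 2.17e-07). All 3 lay far apart from the wild type with little spread. The Zap1 motif was found in 4 promoters of the 15 (26.7%) and in 0.285% of all promoters. It stood before 2 of the 975 genes called higher (0.205%) and 3 of the 684 called lower (0.439%). Of 26 genes of iron uptake 12 were higher and 0 lower (median 0.88). *FIT2*, a cell wall mannoprotein that retains siderophore iron, had 162 and 172 RPKM in *sin3∆*, against 5.42 and 8.74 RPKM in the wild type (log2 fold change 4.41 ± 0.22 SE, adjusted p = 2.26e-06). *SIT1*, a siderophore transporter, had 39.6 and 37.7 RPKM in *sin3∆*, against 2.92 and 2.53 RPKM in the wild type (log2 fold change 3.41 ± 0.11 SE, adjusted p = 3.54e-07). *ENB1*, the enterobactin transporter, was at 48.7 and 47.6 RPKM in *sin3∆* and listed at 0 in both wild-type libraries (adjusted p = 7.55e-08, limma). The surface reductase *FRE1* had a log2 fold change of 2.59. The copper list had 4 of 10 genes higher and 2 lower. The copper transporter *CTR3* had 122 and 115 RPKM in *sin3∆*, against 9.44 and 8.12 RPKM in the wild type (log2 fold change 3.61 ± 0.15 SE, adjusted p = 1.06e-06), and *CTR1*, the main high-affinity one, had a log2 fold change of 1.60. The reductase *FRE7* (-1.73) and the vacuolar transporter *CTR2* (-1.06) were lower, and the other higher ones were the *CUP1* copies given above.

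Phosphate genes moved in both directions, with 6 of 23 higher and 4 lower, and 3 and 5 when the scaling between libraries was removed. *PHO5*, the secreted acid phosphatase, had 62.2 and 69.5 RPKM in *sin3∆*, against 14.1 and 10.8 RPKM in the wild type (log2 fold change 2.32 ± 0.13 SE, adjusted p = 4.00e-06). Its close relative *PHO11* had a log2 fold change of 1.79. *PHM8*, a nucleotidase of phosphate starvation, fell to 99.6 and 119.9 RPKM in *sin3∆*, against 504 and 558 RPKM in the wild type (log2 fold change -2.27 ± 0.11 SE, adjusted p = 2.21e-06), and *GIT1*, a member of the same list, is given above.

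Cofactor pathways split. Thiamine and vitamin B6 synthesis are linked, since Snz and Sno proteins make vitamin B6 and Thi5-type proteins use it to build a thiamine precursor. Thiamine genes had 0 higher and 8 lower of 14 (median log2 fold change -1.35). *THI5* fell to 56.6 and 54.8 RPKM in *sin3∆*, against 768 and 796 RPKM in the wild type (log2 fold change -3.79 ± 0.07 SE, adjusted p = 5.80e-08), and *THI11*, *THI12* and *THI13* had log2 fold changes of -3.66, -3.78 and -3.71. Their levels differed, but these are near-identical copies whose reads may be split among them. In vitamin B6 synthesis 3 genes were higher and 3 lower of 8. *SNZ1* had 625 and 654 RPKM in *sin3∆*, against 16.3 and 15.4 RPKM in the wild type (log2 fold change 5.25 ± 0.09 SE, adjusted p = 2.90e-08). Its divergent neighbour *SNO1* had 120.1 and 125 RPKM in *sin3∆*, against 10.3 and 12.3 RPKM in the wild type (log2 fold change 3.33 ± 0.14 SE, adjusted p = 1.26e-06). Both rose far above the wild type. *SNZ3*, which lies beside *THI5* and has a near-identical copy of its own, fell to 136 and 137 RPKM in *sin3∆*, against 399 and 479.7 RPKM in the wild type (log2 fold change -1.68 ± 0.09 SE, adjusted p = 3.18e-06).

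Synthesis and uptake of NAD, which yeast makes from tryptophan, had 6 of 15 genes lower and 2 higher (median log2 fold change -0.83). *BNA2*, the first enzyme, fell to 1.57 and 1.05 RPKM in *sin3∆*, against 22.0 and 16.9 RPKM in the wild type (log2 fold change -3.14 ± 0.21 SE, adjusted p = 8.84e-06). *BNA6*, quinolinate phosphoribosyltransferase, fell to 6.65 and 7.41 RPKM in *sin3∆*, against 62.0 and 55.2 RPKM in the wild type (log2 fold change -2.89 ± 0.12 SE, adjusted p = 9.15e-07). *BNA4*, kynurenine monooxygenase, went against them with 143 and 148 RPKM in *sin3∆*, against 18.7 and 20.2 RPKM in the wild type (log2 fold change 2.84 ± 0.08 SE, adjusted p = 2.37e-07). The kynureninase gene *BNA5* had a log2 fold change of -2.12, so neighbouring steps of a single pathway moved in opposite directions. For biotin 3 of 6 genes were higher, *BIO4* (1.84), the importer *VHT1* (1.59) and *BIO2* (1.25), of which *BIO2* lost its call with the scaling removed. One-carbon genes had 3 of 13 higher, *MTD1* (1.52), *MET13* (1.23) and *MIS1* (1.11), and 1 lower, with 1 and 2 once the scaling was removed. The lower one, *DFR1*, dihydrofolate reductase, had 51.1 and 50.3 RPKM in *sin3∆*, against 256 and 275 RPKM in the wild type (log2 fold change -2.37 ± 0.08 SE, adjusted p = 4.62e-07).

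**Figure D5:**
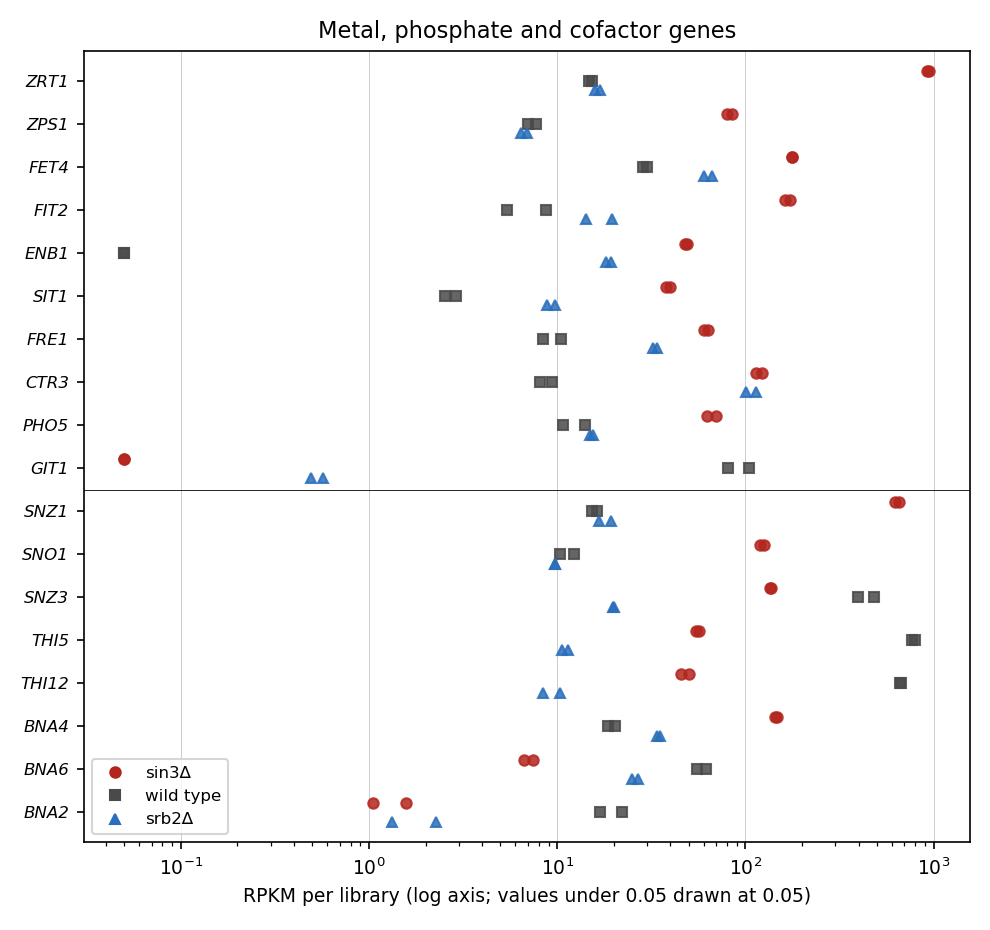
RPKM per library (log axis, values under 0.05 drawn at 0.05) of metal and phosphate genes (above the line) and of vitamin B6, thiamine and NAD genes (below the line); red circles are *sin3∆*, grey squares the wild type and blue triangles *srb2∆*. *ZRT1*, *ZPS1*, *SNZ1* and *SNO1* stand high in *sin3∆* with the other strains side by side, while *THI5* and *THI12* are lower in both mutants than in the wild type.

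Sugar uptake and storage lists held more falls than rises. Hexose transporters had 6 of 15 lower and 1 higher (median log2 fold change -0.82). *HXT5*, a transporter of slow growth, fell to 10.5 and 12.7 RPKM in *sin3∆*, against 84.1 and 79.8 RPKM in the wild type (log2 fold change -2.72 ± 0.15 SE, adjusted p = 3.57e-06), while *HXT11*, *HXT9* and *HXT6* had log2 fold changes of -3.92, -3.28 and -2.48. *HXT9* and *HXT11*, like *HXT6* and its neighbour, are close copies whose reads may be divided. Trehalose, a storage sugar and protectant, had 5 of 7 genes lower and 0 higher. The synthase gene *TPS1* fell to 126 and 129 RPKM in *sin3∆*, against 723 and 653 RPKM in the wild type (log2 fold change -2.43 ± 0.12 SE, adjusted p = 2.20e-06), and the regulatory subunit gene *TSL1* had a log2 fold change of -3.12. In glycolysis 4 of 17 were lower and 0 higher, *TDH1*, *PYK2* and *ENO1* given above and *GLK1*, glucokinase (-1.77). In the pentose phosphate pathway 3 of 10 were lower, all minor isozymes (*GND2*, *SOL4* and *TKL2*), while the isomerase *RKI1* rose (2.12).

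Steps from pyruvate to ethanol and acetate had called genes in both directions, with 4 of 17 genes higher and 5 lower. *ALD5*, the mitochondrial acetaldehyde dehydrogenase, had 134 and 146 RPKM in *sin3∆*, against 14.3 and 13.9 RPKM in the wild type (log2 fold change 3.22 ± 0.10 SE, adjusted p = 3.46e-07). *ALD3*, a stress-induced cytosolic one, fell to 6.58 and 6.11 RPKM in *sin3∆*, against 202 and 202 RPKM in the wild type (log2 fold change -4.79 ± 0.14 SE, adjusted p = 2.80e-07). Mutant values were thus higher for one and lower for the other. *PDC5*, a minor pyruvate decarboxylase, had 122 and 125 RPKM in *sin3∆*, against 1035 and 827 RPKM in the wild type (log2 fold change -2.90 ± 0.11 SE, adjusted p = 7.04e-07). *ADH5*, a minor alcohol dehydrogenase, had 504 and 549 RPKM in *sin3∆*, against 91.1 and 69.7 RPKM in the wild type (log2 fold change 2.71 ± 0.16 SE, adjusted p = 4.28e-06). As in all called genes, the groups did not overlap in any of the 4. Glycerol genes had 2 of 13 higher and 5 lower (8 with the scaling removed), and the lower ones included the dehydrogenase *GCY1* (-2.07) and the dihydroxyacetone kinase *DAK1* (-2.03). *AQY2*, an aquaporin, had 15.2 and 14.2 RPKM in *sin3∆*, against 0.578 and 0.638 RPKM in the wild type (log2 fold change 3.29 ± 0.13 SE, adjusted p = 9.67e-07). Regulators of non-fermentable carbon use also parted, since *SIP4* rose (3.28) and *ADR1* fell (-3.13).

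Called genes of the mitochondrial lists were lower ones only. Of 67 genes for mitochondrial ribosomal proteins 22 were lower and 0 higher (median log2 fold change -0.88), and of 35 nuclear genes of the respiratory chain 11 were lower and 0 higher (median -0.67). With the scaling between libraries removed the lower counts were 53 and 17. *MRP2*, of the small mitochondrial subunit, fell to 47.7 and 50.6 RPKM in *sin3∆*, against 149 and 199.5 RPKM in the wild type (log2 fold change -1.79 ± 0.22 SE, adjusted p = 1.97e-04). *ATP7*, a stalk subunit of ATP synthase, fell to 114 and 103 RPKM in *sin3∆*, against 466 and 561 RPKM in the wild type (log2 fold change -2.23 ± 0.10 SE, adjusted p = 1.63e-06). *HEM15*, ferrochelatase, the last step of heme synthesis, fell to 37.6 and 38.9 RPKM in *sin3∆*, against 262 and 261 RPKM in the wild type (log2 fold change -2.74 ± 0.07 SE, adjusted p = 1.23e-07). It was the only called gene of 12 on the heme list, where 4 were lower with the scaling removed. Yeast replaces some proteins by hypoxic isoforms when oxygen is low. *AAC3*, the ADP/ATP carrier of low oxygen, had 90.4 and 88.3 RPKM in *sin3∆*, against 4.36 and 4.78 RPKM in the wild type (log2 fold change 4.02 ± 0.12 SE, adjusted p = 2.80e-07), and *ANB1*, the hypoxic form of eIF5A, had a log2 fold change of 2.68. Against this, *HEM13*, a hypoxic heme gene, fell (-1.72), and the hypoxic list as a whole had 4 higher and 4 lower of 15.

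The called genes of 3 lists that serve ribosome building and translation were all higher ones. Ribosome assembly factors had 21 of 39 higher and 0 lower (median log2 fold change 1.12), RNA polymerase I and III genes 9 of 24 higher and 0 lower, and cytosolic tRNA synthetases 8 of 21 higher and 0 lower. With the scaling removed the higher counts were 13, 4 and 3, and that of the ribosomal proteins was 71. *MAK16*, a factor of the large subunit, had 207 and 193 RPKM in *sin3∆*, against 47.7 and 66.6 RPKM in the wild type (log2 fold change 1.81 ± 0.14 SE, adjusted p = 1.82e-05). *RRN11*, of the core factor of RNA polymerase I, had 41.8 and 41.0 RPKM in *sin3∆*, against 2.80 and 4.20 RPKM in the wild type (log2 fold change 3.25 ± 0.14 SE, adjusted p = 1.36e-06). *YHR020W*, a prolyl-tRNA synthetase gene, had 286 and 302 RPKM in *sin3∆*, against 70.2 and 65.2 RPKM in the wild type (log2 fold change 2.10 ± 0.07 SE, adjusted p = 3.58e-07). Both libraries of the mutant were higher in each. The PAC element (GCGATGAG, both strands), common before such genes, was found in 24 of the 39 assembly genes (61.5%), in 10.5% of the genes called higher, in 1.17% of those called lower and in 3.95% of all promoters. The Gcn4 element (TGACTCA) stood at 5.95%, 1.46% and 2.73% in the same order, and the stress element AAGGGG at 6.77%, 15.9% and 10.1%. None of these motifs contains another, and their presence is a description only.

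Pyrimidine genes were also higher, 8 of 14 with 1 lower (median log2 fold change 1.26). Uptake and salvage genes had the largest changes. *FUR4*, the uracil permease, had 47.9 and 51.6 RPKM in *sin3∆*, against 8.57 and 6.97 RPKM in the wild type (log2 fold change 2.54 ± 0.14 SE, adjusted p = 3.28e-06). *FCY2*, the purine and cytosine permease, had a log2 fold change of 2.92, and *FUR1*, uracil phosphoribosyltransferase, one of 2.04. Proteasome genes were seldom called, with 1 of 33 lower and 0 higher (4 lower with the scaling removed), and that 1, *PRE1* (-1.06), lost its call without wild type replicate 3.

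At the cell surface, 7 of 27 genes of wall proteins and glucan enzymes were lower and 3 higher. *PIR3*, a wall protein bound to glucan, fell to 16.5 and 19.2 RPKM in *sin3∆*, against 179.9 and 144 RPKM in the wild type (log2 fold change -3.11 ± 0.13 SE, adjusted p = 1.12e-06). *GSC2*, the alternative glucan synthase, fell to 11.3 and 11.4 RPKM in *sin3∆*, against 146 and 102 RPKM in the wild type (log2 fold change -3.32 ± 0.16 SE, adjusted p = 2.25e-06). *UTR2*, a transglycosidase that links chitin to glucan, had 403 and 399 RPKM in *sin3∆*, against 78.4 and 86.0 RPKM in the wild type (log2 fold change 2.27 ± 0.07 SE, adjusted p = 3.43e-07). Eisosomes, furrows of the plasma membrane, had 1 of 10 genes higher and 4 lower, with the core proteins *PIL1* (-1.41) and *LSP1* (-1.23) among the lower ones. *FMP45*, a protein of the same domains, had 5.02 and 5.66 RPKM in *sin3∆*, against 135 and 116 RPKM in the wild type (log2 fold change -4.32 ± 0.18 SE, adjusted p = 1.00e-06). Called genes of early secretion were mostly lower. Glycosylation and translocation had 9 of 29 lower and 2 higher, COPII vesicles and cargo receptors 6 of 18 lower and 0 higher, with 14 and 10 lower once the scaling was removed. The coat gene *SEC23* fell to 95.0 and 99.2 RPKM in *sin3∆*, against 282 and 234 RPKM in the wild type (log2 fold change -1.40 ± 0.11 SE, adjusted p = 2.39e-05), and *SEC62*, a translocon subunit, had a log2 fold change of -1.58.

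Lipid genes gave no single direction. Phospholipid and inositol genes had 3 of 20 lower and 0 higher, *INO1*, *INO4* and the inositol transporter *ITR1* (-1.31), and 5 were lower with the scaling removed. The UASINO element (CATGTGAA) was present in 9 promoters of these 20 (45.0%) and in 0.703% of all. Fatty acid synthesis had 3 of 12 higher and 1 lower. The elongase gene *ELO1* had 197 and 205 RPKM in *sin3∆*, against 46.1 and 46.5 RPKM in the wild type (log2 fold change 2.09 ± 0.07 SE, adjusted p = 3.85e-07). Another elongase gene, *ELO2*, and *FAA4*, an acyl-CoA synthetase gene, had log2 fold changes of 1.86 and 1.45, the third elongase gene, *ELO3*, was not called (0.84), and the lower gene was *ACB1*. Sphingolipid genes had 1 of 21 higher and 3 lower (median log2 fold change -0.10), a lower share near that of all genes (12.2%). *ORM2*, a brake on sphingolipid synthesis, fell to 139 and 139 RPKM in *sin3∆*, against 642 and 675 RPKM in the wild type (log2 fold change -2.24 ± 0.08 SE, adjusted p = 6.45e-07).

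Cyclin genes had 4 of 14 higher and 1 lower, among them the S-phase cyclins *CLB5* (2.12) and *CLB6* (2.28) and the mitotic *CLB2* (1.46). *ASH1*, itself a daughter-specific repressor that works with the Rpd3 complex, had 32.2 and 32.2 RPKM in *sin3∆*, against 12.2 and 10.8 RPKM in the wild type (log2 fold change 1.41 ± 0.08 SE, adjusted p = 4.86e-06). In bulk RNA a larger share of cells in a phase and more RNA per cell cannot be told apart.

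Mating and late sporulation genes had calls in the lower direction. Of 5 **a**-cell genes tested 5 were lower. *BAR1*, the protease that degrades pheromone, fell to 9.84 and 9.15 RPKM in *sin3∆*, against 79.3 and 78.4 RPKM in the wild type (log2 fold change -2.93 ± 0.07 SE, adjusted p = 1.39e-07). *STE2*, the pheromone receptor, fell to 156 and 145 RPKM in *sin3∆*, against 477 and 463 RPKM in the wild type (log2 fold change -1.63 ± 0.07 SE, adjusted p = 1.00e-06). Middle and late sporulation genes had 5 of 18 lower and 0 higher (8 lower with the scaling removed). *NDT80*, the activator of the middle genes, fell to 0.703 and 1.22 RPKM in *sin3∆*, against 4.29 and 3.42 RPKM in the wild type (log2 fold change -1.31 ± 0.20 SE, adjusted p = 6.94e-04), a call lost with a pseudocount of 5. *SPS4*, a late gene, had a log2 fold change of -2.23. Transcription regulators had 11 of 68 higher (7 with the scaling removed) and 16 lower. *XBP1*, a repressor made under stress and starvation, fell to 4.55 and 4.73 RPKM in *sin3∆*, against 91.5 and 86.6 RPKM in the wild type (adjusted p = 1.25e-07, limma). *NRG2*, a glucose repressor, and *USV1*, a stress factor, had log2 fold changes of -3.28 and -3.15.

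The comparison with *srb2∆* showed which values set *sin3∆* apart from another deletion made in the same way. It shares the *sin3∆* libraries with the comparison above. Against *srb2∆*, 670 genes were higher in *sin3∆* and 166 lower, 11.9% and 2.95% of those tested. The lower count was 252 under quantile normalization and 98 with a pseudocount of 5. Called zinc and early meiotic genes were mostly higher here as well, and so were those of vitamin B6, which had split against the wild type. *ZRT1* had 923 and 951 RPKM in *sin3∆*, against 15.9 and 16.9 RPKM in *srb2∆* (log2 fold change 5.75 ± 0.09 SE, adjusted p = 7.16e-08), and 8 of 15 zinc genes were higher and 0 lower. *MND1*, a cofactor of meiotic strand exchange, had 168 and 191 RPKM in *sin3∆*, against 1.40 and 0.667 RPKM in *srb2∆* (log2 fold change 6.49 ± 0.18 SE, adjusted p = 3.97e-07), and 23 of 29 early meiotic genes were higher and 1 lower. Among the 29, *HOP2*, *MEI4*, *MEI5*, *SAE3* and *SPO11* were tested only because they were high in *sin3∆*, so the filter set their direction here too. *SNZ1* had 625 and 654 RPKM in *sin3∆*, against 19.4 and 16.6 RPKM in *srb2∆* (log2 fold change 5.08 ± 0.09 SE, adjusted p = 7.33e-08), and 6 of 8 vitamin B6 genes were higher. The 39 ribosome assembly genes had a median log2 fold change of -0.46 in this comparison, while 7 of 13 ammonium and glutamate genes were higher. The 132 cytosolic ribosomal protein genes had 0 higher and 0 lower (median 0.06). The same counts of 0 held for ribosome assembly, RNA polymerase I and III, cytosolic tRNA synthetases, glycosylation and translocation, and COPII vesicles. Mitochondrial ribosomal proteins had 0 of 67 higher and 1 lower. The changes of these lists against the wild type thus hardly set *sin3∆* apart from *srb2∆*.

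Other lists had more genes called between the mutants than between *sin3∆* and the wild type. Autophagy had 18 of 37 genes higher in *sin3∆* than in *srb2∆* and 0 lower (median log2 fold change 0.94), while 3 were higher and 3 lower than in the wild type. Vacuolar proteases and inhibitors had 8 of 11 higher and 0 lower (median 1.73), while 1 was higher and 3 lower than in the wild type. Fatty acid oxidation and peroxisome genes had 9 of 15 higher and 1 lower, while 3 were higher and 4 lower than in the wild type. *SPO24*, a sporulation gene, had 832 and 974 RPKM in *sin3∆*, against 15.9 and 0 RPKM in *srb2∆* (log2 fold change 7.78 ± 1.12 SE, adjusted p = 8.10e-04), and the *srb2∆* libraries differed from each other. *SPO24* was also called higher than in the wild type, a call that was lost when single libraries were left out. *STR3*, the peroxisomal cystathionine beta-lyase, had 91.6 and 93.0 RPKM in *sin3∆*, against 1.35 and 1.30 RPKM in *srb2∆* (log2 fold change 5.33 ± 0.13 SE, adjusted p = 2.44e-07). Among falls, *NFG1* had 3.15 and 1.23 RPKM in *sin3∆*, against 105 and 109 RPKM in *srb2∆* (log2 fold change -5.15 ± 0.28 SE, adjusted p = 6.73e-06). Its neighbour on chromosome XII, *AFB1*, whose product blocks the **a**-factor pheromone, had 0 and 0.414 RPKM in *sin3∆*, against 18.2 and 20.9 RPKM in *srb2∆* (log2 fold change -4.11 ± 0.18 SE, adjusted p = 2.19e-06). Both had also fallen against the wild type, with log2 fold changes of -6.30 and -4.44. *FLO11*, the flocculin of invasive growth, had 4.54 and 3.97 RPKM in *sin3∆*, against 65.8 and 71.4 RPKM in *srb2∆* (log2 fold change -3.73 ± 0.14 SE, adjusted p = 1.27e-06). Its wild-type values were 1.47 and 1.21 RPKM, so it was lower in *sin3∆* than in *srb2∆* and higher than in the wild type (1.17), a call that was lost with the scaling removed.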

How the data were processed

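RNA-seq of 4 strains grown at 30°C was used, with 2 libraries per strain, grouped by the sample labels. Per the submitters' processing notes and the study's methods, paired 150-base reads were aligned with Bowtie2 to the transcripts of genome build R64, expression was computed with RSEM and strains were compared with DESeq2. The values were deposited by the authors as RPKM, and the table's name gives TMM as the scaling between libraries. They summed to 862336 to 1150769 per library with a geometric mean of 999854, and dividing each library by 1 factor left multiples of 0.01. Since these sums would also be those of TPM, a unit scaled to the same total in every library, the unit is not settled, and the name RPKM is kept from the deposit. Removing that factor gave the alternative without scaling. Whether strand was used in quantification is not given in the sources used here, so overlapping genes may share reads. Read counts were not used here, so the depth behind a value is unknown and precision is that of 2 libraries per strain. The tables of the authors' own comparisons hold log2 fold changes, p-values and FDR and were not used. Of 6106 lines 3 were empty and are not reported here, 5977 of 6103 genes had a locus in R64, and 309 had no value above 0.

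The test used log2(RPKM + 1) of the 5628 genes that reached 1 RPKM in 2 or more libraries. A single fit of the 4 groups was made in limma 3.58.1 (R 4.3.3), with a trended prior and 4 residual degrees of freedom. P-values were adjusted by Benjamini and Hochberg over all 5628 genes, and calls needed a 2-fold change or more with an adjusted p no higher than 0.05. Errors are limma's moderated standard errors (SE), and the procedure was tested on simulated data. Promoter sequences were read from the RefSeq R64 genome. Tables and plots were made with Python 3.11.15, pandas 2.3.3, numpy 2.4.6, scipy 1.17.1 and matplotlib 3.10.9.

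The members and the 66 gene lists were chosen with earlier results of these data known, and they give no independent support. The result of 1 list is not reported here. Genes named are *SIN3*, the largest gains and losses in RPKM, the largest folds among genes averaging 10 RPKM or more, the highest called genes that crossed 1 RPKM, up to 4 called members of each list with the largest change, members that define a list, and the largest differences from *srb2∆*. *VAC17*, *YET2*, *COX7*, *DDR2* and the genes set apart from all 6 other libraries were picked after their values were seen. The alternatives tried were median-ratio scaling with and without the ribosomal protein genes, quantile normalization, no filter or one at 10 RPKM, pseudocounts of 0.1 and 5, a fit of only the 2 groups compared, limma without the trend and leaving out each library in turn. Removing the scaling between libraries was added after seeing the data.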

Additional observations from a re-analysis of the deposited data

How the results depend on the processing

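Against the wild type, 995 genes were higher and 685 lower, and only the removal of the scaling between libraries, added after the data had been seen, moved these counts by over 1.5 times, to 648 higher and 1117 lower (median log2 fold change of all genes -0.30). Leaving out each library in turn gave 980 to 1011 higher and 667 to 722 lower. Against *srb2∆*, quantile normalization gave 252 lower genes (median of all genes -0.12) and a pseudocount of 5 gave 98, beside 166 as reported, and leaving out each library gave 662 to 673 higher and 166 to 173 lower. Of genes switched on, 19 rather than 30 were under 0.5 RPKM in the wild type, and leaving out each library gave 28 to 37 switched on and 20 to 28 switched off. No call of a named gene reversed. Against the wild type, 18 genes taken by the naming rule lost their call when single libraries were left out, namely *PRE1*, *TSA1*, *SEC24*, *ATG8*, *HTB1*, *MIS1*, *AAD10*, *IMA1*, *PAI3*, *PAU13*, *PAU24*, *MF(ALPHA)1*, *SPO24*, ETS1-1, ETS1-2, snR43, snR44 and snR7-L. No paired analysis was possible because the *sin3∆* libraries are numbered 1 and 2 and those of the wild type and of *srb2∆* 2 and 3, so that only 1 number is shared. The depth in reads is unknown, and values of 0 in genes under 300 bases can be failed estimates.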

Other observations

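Small RNA genes and genes not matched to a locus of R64 were called in an uneven way. Of 52 such genes 20 were higher in *sin3∆* than in the wild type and 1 was lower. The list of small nucleolar RNAs, which also took in the spliceosomal RNA snR7-L, had 10 of 27 genes higher and 1 lower. snR33, which guides modification of ribosomal RNA, had 169 and 101 RPKM in *sin3∆* and was listed at 0 in both libraries of the wild type and of *srb2∆*. The call of snR7-L, the 1 that was lower, and that of snR44 were lost when single libraries were left out. The genes of Ty elements *YCL019W* and *YOR142W-B*, which have near-identical copies, were above 5 RPKM in *sin3∆* and *srb2∆* and under 1 RPKM in the wild type and *mig1∆*. *YCL019W* had 9.25 and 9.31 RPKM in *sin3∆*, against 0.112 and 0.162 RPKM in the wild type, with 19.0 and 18.4 RPKM in *srb2∆* and 0.229 and 0.219 RPKM in *mig1∆*. In all, 4 genes showed this pattern and 2, *GIT1* and *KTD1*, the reverse.

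Antioxidant and efflux genes had calls in both directions. The antioxidant list had 2 of 24 genes higher and 3 lower, 6 lower with the scaling between libraries removed. Its higher share lay under that of all genes (17.7%) and its lower share near that of all genes (12.2%). The median log2 fold change of the list was -0.04, so the list as a whole did not stand out. *CTT1*, cytosolic catalase, fell to 27.6 and 37.2 RPKM in *sin3∆*, against 483 and 471 RPKM in the wild type (log2 fold change -3.86 ± 0.16 SE, adjusted p = 9.40e-07). *SRX1*, the sulfiredoxin that repairs peroxiredoxins, had 47.7 and 44.3 RPKM in *sin3∆*, against 7.28 and 2.97 RPKM in the wild type (log2 fold change 3.03 ± 0.54 SE, adjusted p = 0.00158). Multidrug transporters had 6 of 22 higher and 4 lower, with *QDR2* higher (log2 fold change 1.70) and *TPO4*, *SGE1* and *PDR15* lower (-2.09, -1.97 and -1.91).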
